A study of Homo sapiens with 24 samples.

Results

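The oncofetal genes HMGA2, IGF2BP1, IGF2BP2, IGF2BP3 and LIN28B were followed in U2-OS and SJSA-1, a pair of human osteosarcoma cell lines, after 6 h with THZ531, a covalent inhibitor of the transcription kinases CDK12 and CDK13. Every probe set whose only gene symbol was one of these genes was taken on its own, which gave 15 of the 49372 probe sets on the array: 6 for HMGA2, 3 for IGF2BP1 and 2 each for IGF2BP2, IGF2BP3 and LIN28B. The 5 genes were chosen by their measured changes against DMSO in these same arrays, among them the lower HMGA2 signal at 200 nM in both lines, so all changes against DMSO are given as a description and no test of them is used as support.

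Total RNA was hybridized to Affymetrix PrimeView arrays, 3 for each of 8 groups: U2-OS and SJSA-1, each with DMSO (the vehicle control) or with 50, 200 or 800 nM THZ531. All cells were in complete medium with serum, plated 24 h earlier by the labels, and no group carried a genetic change made for the experiment. Each line is a single established tumour line, and the labels do not tell whether the arrays within a group stem from different cultures, so each p-value reflects only how arrays vary, possibly for technical reasons. The comparisons ask how these genes respond to a transcription inhibitor at rising doses, and whether the lines respond alike.

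Oncofetal genes are active in the embryo, low or silent in most adult tissues and switched on again in many tumours. LIN28B binds precursors of the let-7 microRNAs and blocks their maturation, and mature let-7 in turn represses HMGA2, LIN28B and the IGF2BP genes through sites in their transcripts. HMGA2 is an AT-hook protein that bends DNA and alters chromatin. The IGF2BP proteins bind messenger RNAs, including those of IGF2, MYC and beta-actin, and stabilise them or control their translation.

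The let-7 family that links these genes is recognised by its seed, bases 2 to 8 of the mature strand. That seed, in capitals below, occurs in 11 of 2370 mature names in the RefSeq set for GRCh38.p14, at 14 loci. MicroRNAs themselves were not analysed here. The sequences are shown because the listed genes are grouped around this family, and let-7i lies on chromosome 12 with HMGA2.
hsa-let-7a-5p: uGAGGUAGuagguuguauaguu
hsa-let-7d-5p: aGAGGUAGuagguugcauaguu
hsa-let-7g-5p: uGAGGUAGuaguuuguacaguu
hsa-let-7i-5p: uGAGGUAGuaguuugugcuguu
hsa-miR-98-5p: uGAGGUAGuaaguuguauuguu
The let-7i strand lies at chr12:62603691-62603712 on the plus strand, and HMGA2 at chr12:65824460-65966291.

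IGF2BP3 and LIN28B were each bright in only 1 of the untreated lines (below), and their promoter windows, 250 bases before to 50 after the annotated start in RefSeq for GRCh38.p14, are shown for that reason. Capitals mark matches to CACGTG (the E-box that MYC binds), GGGCGG (the GC box) and CCAAT, on either strand; TATAAA was searched too. These motifs do not overlap each other here.
IGF2BP3, chr7:23470442-23470741, minus strand: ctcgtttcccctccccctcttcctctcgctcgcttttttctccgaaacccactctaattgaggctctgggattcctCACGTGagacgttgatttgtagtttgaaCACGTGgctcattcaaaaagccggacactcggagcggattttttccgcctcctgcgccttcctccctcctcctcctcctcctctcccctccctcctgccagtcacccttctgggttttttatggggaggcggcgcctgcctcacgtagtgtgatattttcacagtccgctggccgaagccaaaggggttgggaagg
LIN28B, upstream start, chr6:104940715-104941014, plus strand: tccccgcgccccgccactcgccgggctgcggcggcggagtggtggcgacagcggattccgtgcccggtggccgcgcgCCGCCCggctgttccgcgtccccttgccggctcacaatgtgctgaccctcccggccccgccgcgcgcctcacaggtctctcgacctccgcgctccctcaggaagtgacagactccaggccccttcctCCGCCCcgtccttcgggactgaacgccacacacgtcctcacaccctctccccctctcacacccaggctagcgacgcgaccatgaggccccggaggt
LIN28B, downstream start, chr6:104956857-104957156, plus strand: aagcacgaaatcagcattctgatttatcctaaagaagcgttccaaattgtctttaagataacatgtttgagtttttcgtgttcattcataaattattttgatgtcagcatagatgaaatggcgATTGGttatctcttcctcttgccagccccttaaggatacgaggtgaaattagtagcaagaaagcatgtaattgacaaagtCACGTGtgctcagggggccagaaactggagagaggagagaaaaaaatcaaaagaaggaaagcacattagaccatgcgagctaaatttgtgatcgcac
The IGF2BP3 window held 2 CACGTG matches, at -174 and -146 from the start, and the downstream LIN28B window held 1, at -47. Of all 35116 promoter windows of this length 7.26% held a CACGTG, 45.0% a GGGCGG, 34.6% a CCAAT and 11.5% a TATAAA. The upstream LIN28B window had 73.0% G and C and 37 CpG pairs, against a median of 58.7% and 14 over all windows, whereas the downstream one had 39.0%. A match is a description of the letters and not evidence of binding.

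The arrays were alike in brightness, with median intensities from 30.1 to 33.6. The lines could be told apart by MDM2 and CDK4, which are amplified with part of chromosome 12 in SJSA-1: MDM2 was 11.2-fold and CDK4 3.36-fold brighter there in DMSO. Of 10 osteoblast markers 5 were active in untreated U2-OS and 1, SPARC, in SJSA-1. No leukocyte or endothelial marker of 7 was active in either, and of 9 neuronal and glial markers only NEFL was, in U2-OS at a log2 intensity of 7.66. Poly-A spike-in controls stood above DMSO after treatment. Their mean was 0.10, 0.55 and 0.94 higher (log2) in U2-OS at 50, 200 and 800 nM, and SJSA-1 gave 0.51, 0.47 and 0.54. For hybridization controls the U2-OS differences were -0.18, -0.10 and -0.06, and those of SJSA-1 were 0.22, 0.18 and 0.21. All changes below are relative to the other probe sets of the same array (the deposited scale), and many small calls depend on that scale. With arrays shifted by the poly-A controls alone, or by both kinds of control, no member probe set was called higher than DMSO at any dose in either line. At 800 nM in U2-OS 15 and 11 of the 15 were then called lower. A control shift moves every probe set of an array by the same amount. The share of all probe sets called on the shifted scales was not counted, so nothing is read about the members from these counts.

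In the untreated lines the 5 genes formed different sets. A probe set was counted active where its DMSO mean exceeded an intensity of 100, which is 6.64 on the log2 scale. HMGA2 and IGF2BP2 had 1 active probe set in both lines, IGF2BP1 had all 3 and IGF2BP3 both of its probe sets active in SJSA-1 only, and LIN28B had 1 active in U2-OS only. The other 7 member probe sets (5 of HMGA2 and 1 each of IGF2BP2 and LIN28B) were active in neither line. The suffix _s_at, which the active IGF2BP2, IGF2BP3 and LIN28B probe sets carry, marks probe sets that can match more than 1 transcript. Other suffixes, such as _a_at on HMGA2 11740656_a_at and IGF2BP1 11727102_a_at, were not assessed. Signal from related transcripts was not tested.

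**Figure D1:**
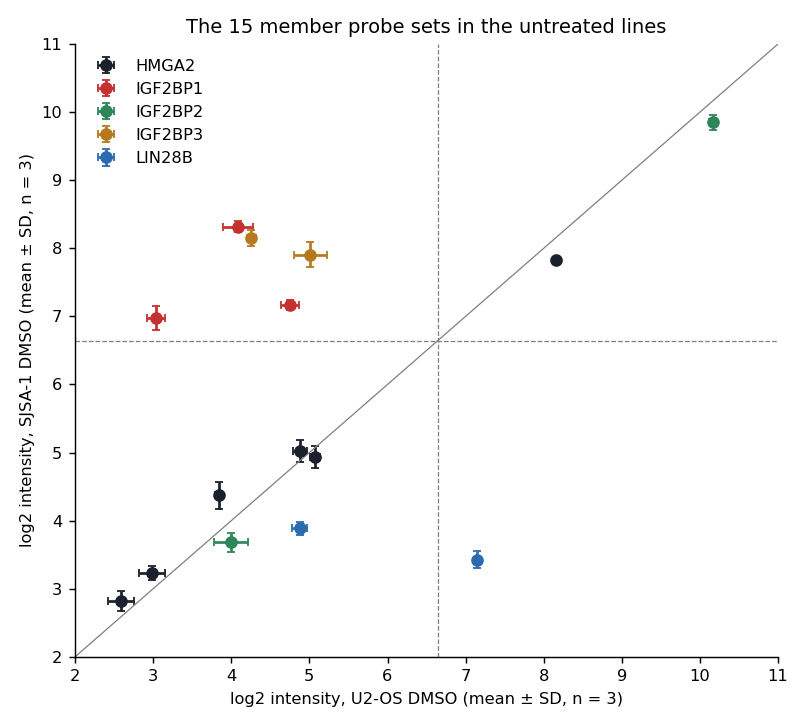
Mean log2 intensity ± SD (n = 3 arrays) of each of the 15 probe sets in untreated U2-OS (x axis) and SJSA-1 (y axis), with the line of equal level and, dashed, the active level of 6.64. The 3 IGF2BP1 and 2 IGF2BP3 points lie far above the line of equal level and the brighter LIN28B point far below it, whereas HMGA2 and IGF2BP2 lie near it.

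IGF2BP1, the RNA-binding protein that stabilises MYC and let-7 target transcripts, was far brighter in SJSA-1. Its probe set 11727103_at had a log2 intensity of 8.32 ± 0.08 (SD, n = 3) in SJSA-1, against 4.09 ± 0.19 for U2-OS, a difference of 4.23 (limma adjusted p = 1.26e-17). The difference was 2.42 for 11727101_at and 3.94 for 11727102_a_at (limma adjusted p = 1.04e-13 and 1.17e-20). None of the groups overlapped. The gene lies at chr17:48996558-49056145.

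IGF2BP3, its close relative at chr7:23310209-23470491, showed the same order. The level of 11756285_s_at was 8.15 ± 0.12 (SD, n = 3) in SJSA-1 and 4.26 ± 0.06 in U2-OS, a difference of 3.90, and 11722917_s_at differed by 2.90 (limma adjusted p = 1.91e-18 and 4.97e-15). LIN28B, the let-7 blocker at chr6:104937026-105083332, had the opposite order: 11720293_s_at read 7.14 ± 0.02 (SD, n = 3) in U2-OS, against 3.43 ± 0.12 for SJSA-1, a difference of -3.71 for SJSA-1 minus U2-OS (limma adjusted p = 6.45e-20).

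HMGA2 and IGF2BP2 differed little between the lines on the deposited scale. The active HMGA2 probe set was lower in SJSA-1 by 0.34 (log2; limma adjusted p = 0.00484) and that of IGF2BP2 by 0.31 (limma adjusted p = 0.000947), and with poly-A controls alone as the scale the differences were -1.25 and -1.23. With hybridization controls alone the HMGA2 difference was -0.22 and not called (adjusted p = 0.0556). HMGA2 lies between CDK4 and MDM2 on chromosome 12, both brighter in SJSA-1, yet its active probe set was not brighter there. Of its dim probe sets, 11732032_a_at was called higher in SJSA-1 by 0.53 (limma adjusted p = 7.83e-06). The dim 11762062_x_at and 11762061_at were called higher by 0.24 and 0.23, and the remaining dim ones were not called. Over all 15 probe sets, 5 were called lower and 8 higher in SJSA-1 (adjusted p under 0.05), beside 28.3% and 27.4% of all 49293 probe sets tested.

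**Figure D2:**
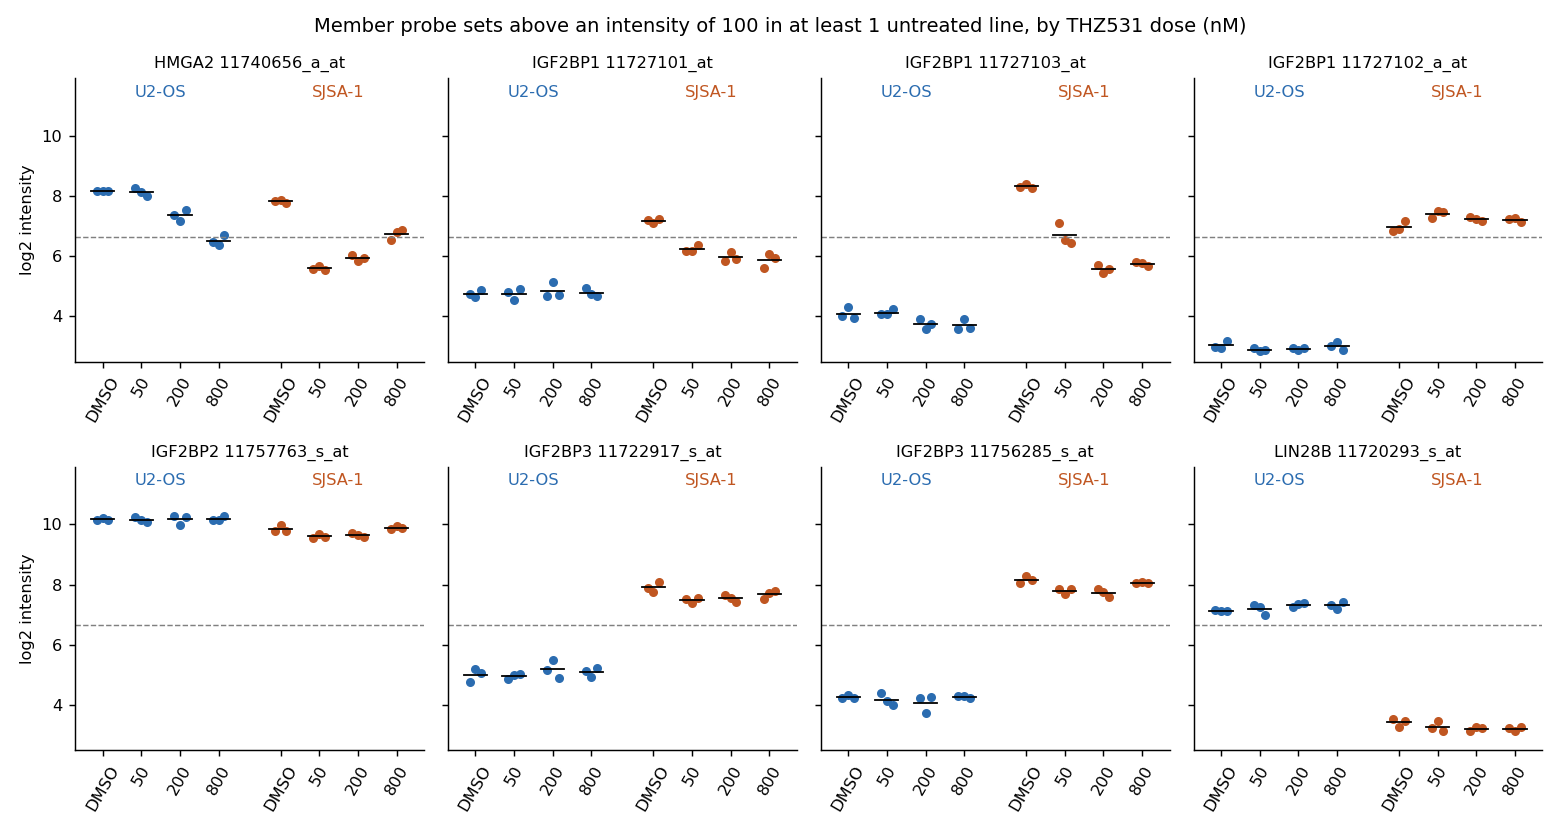
Log2 intensity in every array (points) and group mean (bars) for the 8 probe sets above the active level of 6.64 (dashed) in at least 1 untreated line, by THZ531 dose in nM, U2-OS in blue and SJSA-1 in orange. HMGA2 stepped down with dose in U2-OS but was lowest at 50 nM in SJSA-1, and IGF2BP1 was lower at every dose in SJSA-1 by 2 of its 3 probe sets.

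HMGA2, active in both lines, was lower than DMSO in each, with dose courses that ran in opposite orders. In U2-OS the probe set 11740656_a_at read 8.17, 8.16 and 8.15 in the DMSO arrays and 8.26, 8.14 and 8.01 at 50 nM. At 200 nM it read 7.36, 7.17 and 7.53, and at 800 nM 6.47, 6.36 and 6.70. The 50 nM arrays overlapped the DMSO arrays, the 200 nM arrays lay below both groups and the 800 nM arrays lay below all others. The changes against DMSO were -0.02, -0.81 and -1.65 (SE 0.10 each), which left 98.4%, 57.2% and 31.9% of the DMSO level. In RNA from whole cultures, fewer cells with a transcript and less of it per cell cannot be told apart.

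In SJSA-1 the same probe set read 7.84, 7.85 and 7.78 with DMSO and 5.58, 5.67 and 5.55 at 50 nM. It read 6.03, 5.84 and 5.94 at 200 nM and 6.53, 6.81 and 6.86 at 800 nM. No groups overlapped: the lowest dose gave the lowest signal and each higher dose a higher one, still below DMSO. The changes were -2.22, -1.89 and -1.09 (SE 0.08 each), leaving 21.4%, 27.0% and 47.0%. Ranked from the lowest change, HMGA2 stood 17th of 14783 active probe sets at 50 nM in SJSA-1, 293rd at 200 nM and 1286th at 800 nM. In U2-OS its rank was 6645 of 14671 at 50 nM, 197 at 200 nM and 100 at 800 nM.

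The steps between doses use no DMSO array. Their arrays all entered the changes against DMSO that were known when the gene was chosen, so the steps are a description. In U2-OS HMGA2 fell by 0.78 from 50 to 200 nM and by 0.84 from 200 to 800 nM (limma adjusted p = 0.000396 and 9.44e-05). In SJSA-1 it rose by 0.34 and then by 0.80 (limma adjusted p = 0.008 and 5.3e-05). The smaller SJSA-1 step was not called when arrays were shifted by their poly-A controls alone (0.38, adjusted p = 0.173). With the methods' t-test and Benjamini-Hochberg adjustment that step was the only HMGA2 step still called (adjusted p = 0.0415), and the others were not (adjusted p = 0.125 and 0.0641 in U2-OS and 0.0766 in SJSA-1). Beside these, 1 and 2 of the 15 probe sets were called in the U2-OS steps, against 8.38% and 14.5% of all probe sets, and 2 and 3 in the SJSA-1 steps, against 31.1% and 11.7%.

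The change of HMGA2 also differed between the lines at each dose on the deposited scale. SJSA-1 minus U2-OS was -2.20 at 50 nM, -1.08 at 200 nM and 0.56 at 800 nM (limma adjusted p = 6.42e-11, 1.48e-06 and 0.00232), so the sign of the difference turned at the top dose. With the hybridization controls alone as the scale, the difference at 800 nM was 0.29 and not called (adjusted p = 0.102). These tests share arrays with the changes that chose the gene. Over the 15 probe sets 4, 8 and 6 were called for a line difference at 50, 200 and 800 nM, beside 27.1%, 35% and 36.2% of all probe sets.

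**Figure D3:**
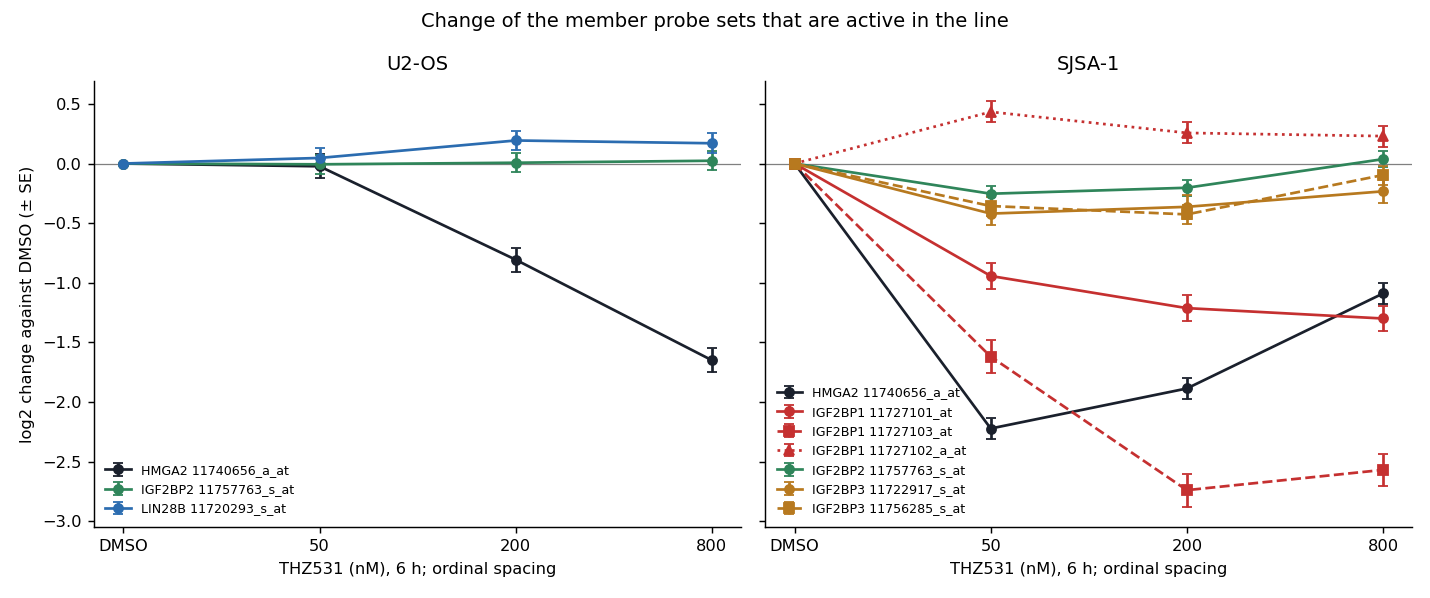
Log2 change against DMSO (± SE from the limma fit, 3 arrays a group) by THZ531 dose in nM, with ordinal spacing, for the member probe sets active in U2-OS (left) and SJSA-1 (right). In U2-OS HMGA2 lay farthest from 0, at -1.65 at 800 nM, whereas in SJSA-1 HMGA2 reached -2.22 at 50 nM and returned to -1.09, and IGF2BP1 11727103_at reached -2.74 at 200 nM.

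The other 5 HMGA2 probe sets did not share that change. All were below the active level in every group, with DMSO means from 2.59 to 5.07 in U2-OS and 2.82 to 5.02 in SJSA-1. On the deposited scale those called against DMSO were higher, whereas with poly-A controls alone, or both kinds of control, as the scale none was called higher and several were called lower. The deposited calls were 11732032_a_at at 800 nM in both lines, by 0.34 and 0.35, 11762062_x_at by 0.25 and 0.28 and 11762061_at by 0.29 and 0.44 at 200 and 800 nM in U2-OS, and 11761705_a_at by 0.39 at 200 nM in SJSA-1. The remaining one, 11762147_at, was called in no dose contrast on the deposited scale. The position of each probe set in its transcript was not analysed here.

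IGF2BP1 had 3 active probe sets in SJSA-1, and they did not move together. The probe set 11727103_at read 8.29, 8.41 and 8.25 with DMSO and 7.11, 6.53 and 6.45 at 50 nM. It read 5.71, 5.44 and 5.58 at 200 nM and 5.82, 5.76 and 5.66 at 800 nM. All treated arrays lay below all DMSO arrays, and the 200 and 800 nM arrays overlapped each other. Its changes were -1.62, -2.74 and -2.57 (SE 0.14 each), leaving 32.5%, 15% and 16.8% of DMSO. It fell by 1.12 between 50 and 200 nM (limma adjusted p = 3.17e-05). The step to 800 nM was 0.17 (95% interval -0.13 to 0.47). These steps share arrays with the changes that chose the gene, so they are a description.

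The second, 11727101_at, read 7.20, 7.09 and 7.22 with DMSO, 6.16, 6.16 and 6.36 at 50 nM, 5.84, 6.13 and 5.90 at 200 nM, and 5.62, 6.06 and 5.93 at 800 nM. The treated arrays again lay below the DMSO arrays, but the changes of -0.94, -1.21 and -1.30 (SE 0.11 each) were smaller. The third, 11727102_a_at, was higher on the deposited scale: 6.85, 6.90 and 7.17 with DMSO, 7.27, 7.50 and 7.45 at 50 nM, 7.29, 7.22 and 7.18 at 200 nM, and 7.22, 7.27 and 7.12 at 800 nM. Its changes were 0.43, 0.26 and 0.23 (SE 0.09 each), with the 800 nM arrays overlapping DMSO. The direction of this probe set depends on the scale: at 50 and 200 nM the change was -0.07 and -0.21 with the poly-A controls alone, 0.05 and -0.09 with both kinds of control, and 0.21 and 0.08 with the hybridization controls alone, none of them called.

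**Figure D4:**
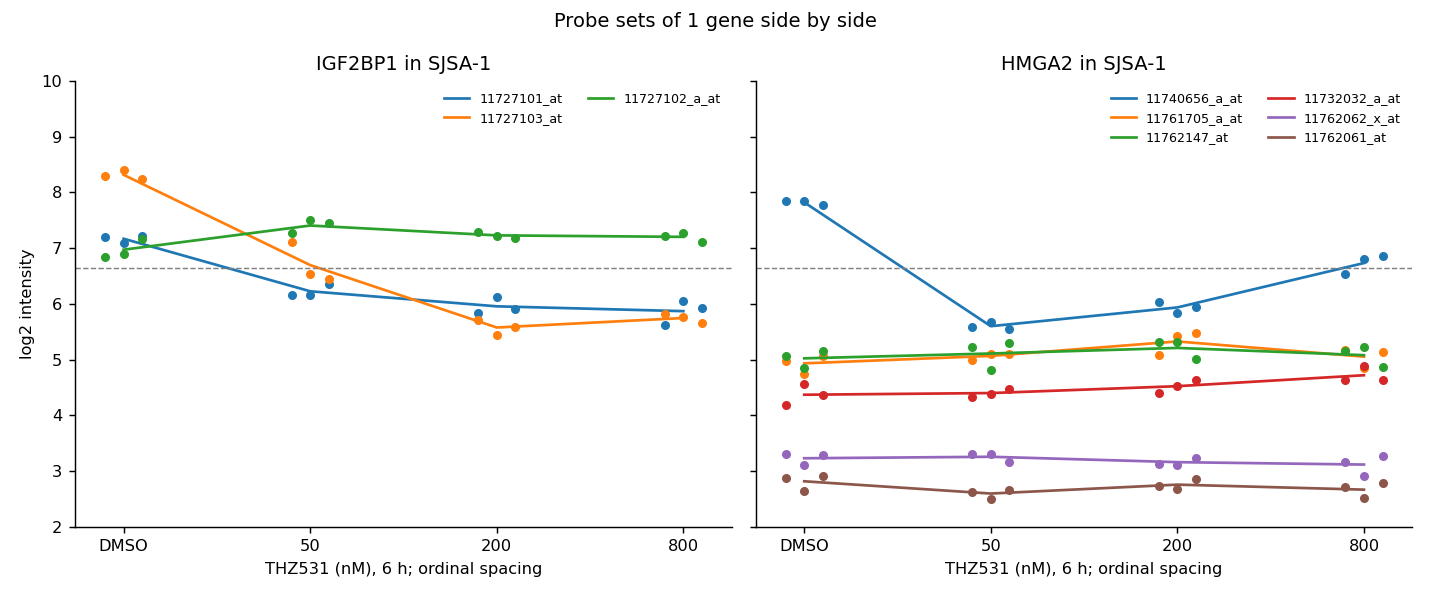
Log2 intensity of the 3 IGF2BP1 probe sets (left) and the 6 HMGA2 probe sets (right) in the 12 SJSA-1 arrays, by THZ531 dose in nM with ordinal spacing; points are arrays, lines join group means and the dashed line is the active level of 6.64. IGF2BP1 11727102_a_at stayed near 7 while 11727103_at went from 8.32 to below 6, and only the brightest HMGA2 probe set moved away from its DMSO level by more than 1.

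The separation of probe sets within a gene was measured as the difference in change between each probe set and the brightest of its gene, with the 9 treated arrays of a line against its 3 DMSO arrays. In SJSA-1 11727102_a_at changed by 1.46 more than 11727101_at, and 11727103_at by -1.16. The 5 dim HMGA2 probe sets changed by 1.59 to 1.95 more than the brightest in SJSA-1, and by 0.73 to 1.11 more in U2-OS. The brightest itself changed by -1.73 in SJSA-1 and -0.83 in U2-OS. The dim ones were below the active level, where a fall may not show, so no difference between transcripts is read from them. All the differences in this paragraph hold the changes that chose the genes, so they are a description with no test.

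In U2-OS, where IGF2BP1 was below the active level, 11727103_at was called lower at 200 nM by 0.34 and at 800 nM by 0.38, and the other IGF2BP1 probe sets were not called. At that low level its changes are not set against those in SJSA-1.

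IGF2BP2 (chr3:185643130-185825042), the most widely expressed of the 3 paralogs in adult tissue, had small changes in both lines on the deposited scale. In U2-OS 11757763_s_at read 10.15, 10.22 and 10.13 with DMSO, 10.25, 10.15 and 10.08 at 50 nM, 10.29, 9.99 and 10.24 at 200 nM, and 10.15, 10.15 and 10.27 at 800 nM. All groups overlapped, and the changes were -0.01, 0.01 and 0.02 with the 95% interval at 800 nM from -0.15 to 0.20. In SJSA-1 it read 9.79, 9.98 and 9.79 with DMSO, 9.56, 9.67 and 9.57 at 50 nM, 9.71, 9.66 and 9.58 at 200 nM, and 9.85, 9.94 and 9.88 at 800 nM.

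The SJSA-1 arrays at 50 and 200 nM thus lay below DMSO, by 0.25 and 0.20, whereas the 800 nM arrays lay within its range, at a change of 0.04 (SE 0.07 each). The 200 nM change was not called with arrays centred on their median (-0.13) or with only the groups compared (-0.20). It was also not called without SJSA-1 DMSO array 2 (-0.14) or 200 nM array 2 (-0.21) or 3 (-0.17). Without DMSO array 2 the 50 nM change was not called either (-0.19). The rise of 0.24 from 200 to 800 nM was called (limma adjusted p = 0.0383), on arrays that also chose the gene. That call was lost without SJSA-1 200 nM array 2 (0.25) or 3 (0.21), without 800 nM array 2 (0.22) or 3 (0.25), and under each shift by controls (0.17 to 0.21), and it was lost with only the groups compared in the fit (0.24). The second IGF2BP2 probe set, 11741712_a_at, was below the active level and called in no dose contrast.

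IGF2BP3 was modestly lower in SJSA-1 by both probe sets. The level of 11756285_s_at was 8.04, 8.27 and 8.15 with DMSO, 7.84, 7.70 and 7.85 at 50 nM, 7.84, 7.76 and 7.58 at 200 nM, and 8.04, 8.09 and 8.04 at 800 nM. For 11722917_s_at the values were 7.88, 7.74 and 8.10, then 7.51, 7.39 and 7.56, then 7.64, 7.56 and 7.43, and 7.52, 7.71 and 7.79 at 800 nM. The 50 and 200 nM arrays lay below DMSO for both probe sets and the 800 nM arrays overlapped it.

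The changes of 11756285_s_at were -0.36, -0.43 and -0.10 (SE 0.08 each) and those of 11722917_s_at -0.42, -0.36 and -0.23 (SE 0.10 each). The first rose by 0.33 from 200 to 800 nM (limma adjusted p = 0.0171), on arrays that also chose the gene. That call was lost without SJSA-1 200 nM array 3 (0.26) or 800 nM array 2 (0.31). It was also lost under each shift by controls (0.26 to 0.30) and with all 24 arrays in 1 fit (0.33). For the second the same step was 0.13 (95% interval -0.08 to 0.34). The pair of probe sets differed in change by 0.05 over all treated SJSA-1 arrays.

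LIN28B, active in U2-OS only, had no called change there in its brighter probe set on the deposited scale. The values of 11720293_s_at were 7.16, 7.13 and 7.13 with DMSO, 7.31, 7.25 and 7.0 at 50 nM, 7.27, 7.34 and 7.39 at 200 nM, and 7.31, 7.20 and 7.42 at 800 nM. The 200 and 800 nM arrays lay above DMSO and the 50 nM arrays overlapped it, with changes of 0.05, 0.19 and 0.17 (SE 0.08 each). The second probe set, 11720292_at, was below the active level and was called higher by 0.39 and 0.43 at 200 and 800 nM on that scale. With poly-A controls alone as the scale both LIN28B probe sets were called lower at 800 nM, with changes of -0.77 and -0.51, and with hybridization controls alone the brighter one was called higher at 200 nM (0.29).

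In SJSA-1 11720293_s_at was between 3.13 and 3.53 in all 12 arrays, with changes of -0.14, -0.21 and -0.21 (SE 0.09 each), none called. These arrays are below the active level, so no line difference is drawn from them.

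Counted over all members, no probe set was called in U2-OS at 50 nM, where 1.01% of all probe sets were. At 200 nM 2 were lower and 3 higher in U2-OS, against 11.7% and 8.06% of all probe sets, and at 800 nM 2 and 4, against 18.7% and 15.5%. In SJSA-1 6 were lower and 1 higher at 50 nM (20.1% and 17.9% of all), 6 and 2 at 200 nM (20.9% and 30.1%), and 3 and 1 at 800 nM (18.6% and 24.6%). Since these contrasts chose the genes, nothing is read from these counts.

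Genes that work beside the members were counted at 200 nM by the brightest probe set of each gene, among genes active in the line. Of all such U2-OS genes 19.7% were called lower and 13% higher, and of the SJSA-1 genes 38.7% and 29%, with a median change of -0.02 in each. Of genes that make, use or act against let-7, 1 of 10 was lower in U2-OS, 5 of 9 were lower in SJSA-1 and none was higher (medians 0.06 and -0.20). TUT7, which adds uridines to let-7 precursors held by LIN28 proteins, was lower in both lines (-0.77 and -1.76). TNRC6A, a scaffold of the silencing complex, changed by -1.61 in SJSA-1 and AGO3, an Argonaute, by -0.56.

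Of let-7 targets other than the members, 2 of 10 were higher and none lower in U2-OS, whereas 2 of 7 were higher and 4 lower in SJSA-1 (medians 0.04 and -0.49). CDC25A, a cell cycle phosphatase, had U2-OS and SJSA-1 changes of 0.29 and -0.83. In SJSA-1 the kinase gene CDK6 changed by -0.68 and the ubiquitin-conjugating enzyme gene CDC34 by -0.59. MYC, at a log2 intensity of 5.25 in untreated SJSA-1, was below the active level and so not counted there. It changed by 2.07 in SJSA-1 and by 0.38 in U2-OS. Of IGF2BP1 partners and other readers of methylated RNA, 1 of 14 was higher and 1 lower in U2-OS, while SJSA-1 had 1 higher and 4 lower (medians 0.03 in each). YTHDC1, the nuclear reader, had U2-OS and SJSA-1 changes of -0.23 and -0.97. The cytoplasmic readers YTHDF1 and YTHDF3 changed by -0.64 and -0.46 in SJSA-1, and YTHDF1 by 0.34 in U2-OS.

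In the IGF axis 2 of 4 active genes were lower in U2-OS, as was 1 of 3 active SJSA-1 genes (medians -0.36 and -0.17). IGFBP5, a secreted IGF-binding protein, changed by -1.43 and the receptor adaptor IRS1 by -0.67 in U2-OS, and the receptor IGF1R by -0.49 in SJSA-1. Of messenger RNAs that IGF2BP proteins bind, 2 of 5 were higher in U2-OS, and 1 was higher and 1 lower of 5 in SJSA-1 (medians 0.12 and 0.07). The U2-OS examples include SRF, a transcription factor (0.48), and in SJSA-1 CTNNB1, which encodes beta-catenin, changed by 0.42 and BTRC, an F-box protein, by -1.36. Of 11 other oncofetal genes, U2-OS had only 1 active and SJSA-1 had 2, and PEG10, an imprinted retrotransposon-derived gene, was higher in SJSA-1 by 0.48.

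Genes with dose courses most like each member were found among genes active in the same lines, by the brightest probe set of each gene. The measure was the root mean square difference of their changes against DMSO. For HMGA2, over 6 treated groups and 5849 genes, these were PMS1 (a mismatch repair gene, 0.21), CREB1 (a cAMP-responsive transcription factor, 0.22) and TUT7 (0.23), beside a median of 1.48 over all candidates. CREB1 had U2-OS changes of -0.02, -0.74 and -1.69 and SJSA-1 changes of -1.71, -1.91 and -1.17. For IGF2BP1, by 11727101_at over the 3 SJSA-1 groups, THAP7, DDIT3 and CRTC3 were nearest (0.06 to 0.07, median 1.16). The other IGF2BP1 probe sets changed by other amounts and were not compared. For IGF2BP2 they were DROSHA, UHRF1 and JKAMP (0.04 to 0.05, median 0.30), for IGF2BP3 OSBPL6, TJP1 and TBL1X (0.02 each, median 0.48), and for LIN28B MRPS22, FBXO30 and DAGLB (0.01 each, median 0.23).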

How the data were processed

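Total RNA from U2-OS and SJSA-1 cells was hybridized to Affymetrix PrimeView arrays in 8 groups of 3 (24 arrays). The authors deposited 1 linear intensity per probe set and array, normalized by RMA, which corrects background, equalises the arrays and summarises probes; the submitters' processing notes name MAS5 beside RMA. Their log2 falls on hundredths, so the values were rounded on that scale before deposit. RMA scales arrays to one another, so a change in total RNA per cell may not be seen. The labels' extraction text names another tissue and kit than the methods (TRIzol), and the cell lines were taken as labelled. Array number and spread, not read depth, limit the precision.

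Log2 intensities were used with no pseudocount. limma 3.58.1 (R 4.3.3) was fitted to all 49293 probe sets other than 79 controls, within a line for dose contrasts and over all 24 arrays for line contrasts, with Benjamini-Hochberg adjustment and a threshold of 0.05. Levels are mean ± SD and changes have SE. The test was checked on simulated data. The platform annotation gave 44994 probe sets a single symbol, 1832 several and 2546 none. All member probe sets were named, and the brightest (mean over 24 arrays) led its gene except for IGF2BP1 and IGF2BP3. Their accounts open with the probe set of the larger line difference, 11727103_at and 11756285_s_at, and the brightest were 11727101_at and 11722917_s_at. Of each gene list up to 3 genes with the largest called change at 200 nM in a line were named, and 3 genes most like each member. Lists covered let-7 processing and targets, IGF2BP partners, the IGF axis, IGF2BP targets, other oncofetal genes, and osteoblast, neuron and glia, and leukocyte and endothelium markers. Members and lists were chosen with earlier results of these data known. Replicate numbers did not pair arrays: same-numbered arrays correlated with medians of -0.06 (U2-OS) and -0.04 (SJSA-1), so no block was used. Promoter and microRNA sequences came from RefSeq for GRCh38.p14, where 3 of the 5 genes matched a promoter window, and figures were drawn with matplotlib 3.10.9. Alternatives were pseudocounts of 1 and 16, active probe sets only, median centring, control shifts, other variance models and arrays in the fit, a replicate block, the methods' t-test, a threshold of 0.01 and leaving out each array.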

Additional observations from a re-analysis of the deposited data

Results flagged for a closer look

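The response of HMGA2 differed between the lines by the interaction test. SJSA-1 change minus U2-OS change was -2.2 at 50 nM, -1.08 at 200 nM and 0.56 at 800 nM (limma adjusted p = 6.42e-11, 1.48e-06 and 0.00232). The groups compared hold 3 arrays each, and the differences are built from the changes that chose the gene. With hybridization controls alone as the scale the 800 nM difference was 0.294 and not called (adjusted p = 0.102).

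Of 13 named genes of the lists that were active in both lines, 12 also differed between the lines at 200 nM by the same test. They were named for the size of their change at 200 nM on the same arrays, so this is a description. The difference (SJSA-1 minus U2-OS) was -1.74 for TNRC6A, -1.12 for CDC25A, -0.993 for TUT7, -0.987 for YTHDF1 and -0.743 for YTHDC1. It was -0.72 for CDK6, -0.69 for YTHDF3, -0.673 for AGO3, -0.637 for CDC34, -0.567 for SRF, -0.433 for IGF1R and 0.3 for CTNNB1, with limma adjusted p from 5.44e-10 to 0.0408. The share of all probe sets called in this comparison was 35%. Among probe sets active in both lines 27.7% were called lower and 25.8% higher.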

How the results depend on the processing

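Only 24 arrays, 3 a group, and low signal in 7 member probe sets limit these results, and the cause of the changes below was not tested except that fewer probe sets were tested with active ones only. Calls of 15 member probe sets changed most with the scale, and with poly-A controls alone or both kinds every call against DMSO was lower. The share of all probe sets called was not counted under the alternatives, and a control shift moves every probe set of an array alike. The counts below therefore describe the processing, and nothing is read about the members from them. Shifted by poly-A and hybridization controls together, 11 were called for U2-OS 800 nM, 3 for U2-OS 200 against 50 nM, 11 and 9 for SJSA-1 50 and 800 nM, 1 for SJSA-1 800 against 200 nM, and 9, 4 and 3 for the line difference at 50, 200 and 800 nM. By poly-A controls alone (chosen, like the next, after seeing the data) these were 15 for U2-OS 800 nM, 9 for U2-OS 200 nM, 7 and 5 for the U2-OS steps, 13 and 12 for SJSA-1 50 and 800 nM, 1 for each SJSA-1 step, and 7 and 3 for the line difference at 50 and 200 nM. By hybridization controls alone they were 2 for U2-OS 200 against 50 nM, 8 for SJSA-1 800 nM, 1 for SJSA-1 800 against 200 nM and 10 for the line difference at 50 nM. IGF2BP1 11727102_a_at in SJSA-1 turned to -0.0744 at 50 nM and -0.213 at 200 nM with poly-A controls, and to -0.0878 at 200 nM with both. With active probe sets only 1 was called in U2-OS at 200 nM, at 800 nM and in its 800 against 200 nM step, 2 between untreated lines and 1 for each line difference. For U2-OS 200 nM the count was 3 with log2(value + 1) or all 24 arrays in 1 fit, 1 with log2(value + 16) and 2 with only the groups compared. With trend and robust fitting 2 were called for U2-OS 200 against 50 nM. The methods' t-test, unadjusted, called 1 for U2-OS 50 nM, 3 for U2-OS 800 nM, 5 for U2-OS 200 against 50 nM and 5 for SJSA-1 200 nM. With Benjamini-Hochberg it called 2 for U2-OS 200 and 800 nM, 0 and 1 for the U2-OS steps, 4 for SJSA-1 50 and 200 nM and 0 for SJSA-1 800 against 200 nM. At adjusted p under 0.01 the counts were 1 and 3 for U2-OS 200 and 800 nM, 5 for SJSA-1 200 nM, 1 for SJSA-1 800 against 200 nM and 3 for the line difference at 200 nM. Leaving out each array in turn gave 1 to 4 for U2-OS 200 nM, 1 to 2 for U2-OS 200 against 50 nM, 5 to 9 for SJSA-1 200 nM, 2 to 4 and 1 to 5 for the SJSA-1 steps and 5 to 8 for the line difference at 200 nM. The U2-OS 200 nM count was 1 without DMSO array 2, 50 nM array 2 or 200 nM array 3. By an exact permutation test over 20 probe set pairs 7 passed, and 13 with 200 and 800 nM arrays alone as treated; these hold the changes that chose the genes, and nothing is read from them. With a replicate block 4 member probe sets were called for U2-OS 200 nM and 8 for SJSA-1 200 nM, and no count moved by over 1.5 times. The changes of HMGA2 11740656_a_at against DMSO kept their direction and call under every alternative that tested this probe set on its own. That held at 200 and 800 nM in U2-OS and at all doses in SJSA-1. Every alternative used the arrays and changes that chose the gene, so this is a description and not support. The other HMGA2 probe sets, all below the active level, did not share the changes of 11740656_a_at. At that level a fall of this size may not show, so the statement covers 11740656_a_at alone.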
